A study of Mus musculus with 10 samples.

Results

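Tight junctions seal neighbouring epithelial cells to each other, and in the cochlea they keep the potassium-rich endolymph apart from the fluid around it. The 8 genes described here were given by symbol as the tight and tricellular junction genes linked to hearing: the claudins Cldn9, Cldn11, Cldn14 and Cldn6, the MARVEL-domain proteins Ocln (occludin) and Marveld2 (tricellulin), the angulin Ildr1, and the scaffold Tjp1 (ZO-1). They are 8 of 54532 genes counted, and all 8 passed the filter on low counts that left 17937 genes to test. The rule that named them used no measured value, but earlier results of these data were known when they were chosen.

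The libraries hold messenger RNA of the soft tissue of both cochleae of 1 female mouse each, taken on postnatal day 1. In all 10 animals both Esrrg alleles were flanked by loxP sites (Esrrgfl/fl), and Esrrg encodes the nuclear receptor estrogen-related receptor gamma. The 5 control animals carried nothing else per the labels, and the 5 animals labelled cKO (conditional knockout) also carried Sox10-Cre, a recombinase expressed under Sox10 sequence. Sox10 is known from the otic epithelium and from neural crest cells that give rise to glia and melanocytes. A whole-tissue measurement cannot tell fewer cells of a type from less RNA per cell.

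The libraries held 33.5 to 41.8 M counts (M, mega). Markers listed for hair cells, supporting cells, strial marginal cells, melanocytes, Schwann cells, epithelium, endothelium and mesenchyme were all detected, for example Tecta of the tectorial membrane with 31684 to 62164 counts per library, and no gene of the 12 marker lists was at 0 in all libraries. Esrrg went against its label: it had 1725 to 2414 counts in control libraries and 2768 to 3632 in the cKO-labelled ones, 0.62 higher on the log2 scale (SE 0.117; edgeR adjusted p = 0.0259), so the second group is called the cKO-labelled libraries and every direction depends on that label. Counts were summed over all exons, so the loss of a single exon would not be seen in them. Control 2 stood apart from the other libraries: its deviations from the control mean fell with exon length, with a correlation across 15260 genes of -0.516. The other 9 libraries had -0.237 to 0.267, each from the mean of its own genotype, so the values of the other controls depend on control 2. Labelled cKO 2 (-0.237) and labelled cKO 1 (-0.163) also had negative values. Results that rest on control 2 are given with and without it.

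Claudins span the membrane and form the strands of the tight junction. Where 3 cells meet, tricellulin and the angulins close the remaining gap, and an angulin recruits tricellulin to that corner. ZO-1 anchors these proteins to actin inside the cell. Claudin-11 forms the strands between the basal cells of the stria vascularis, and claudin-14, claudin-9, tricellulin and ILDR1 are found between hair cells and supporting cells. Inherited loss of claudin-14, claudin-9, tricellulin or ILDR1 causes deafness, and mice without claudin-11 or occludin lose hearing.

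Cldn6 and Cldn9 needed a check before their counts were read, because they are similar neighbours. On GRCm38, Cldn6 lies on chromosome 17 at 23679249 to 23682446 on the plus strand and Cldn9 at 23682584 to 23684026 on the minus strand, so the genes end 137 bp apart and point at each other. Their coding sequences were identical at 476 of 651 aligned bases (73.1%), the highest value among the 6 pairs of these 4 claudins, where the other 5 pairs had 54.5% to 59.7%. The longest run the pair shares is 37 bases, and coding bases 55 to 154 of each gene are shown with this run in capitals, since they hold the longest stretch of identical bases.
Cldn9: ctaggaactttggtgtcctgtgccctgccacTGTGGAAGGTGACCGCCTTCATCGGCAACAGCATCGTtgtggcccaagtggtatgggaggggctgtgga
Cldn6: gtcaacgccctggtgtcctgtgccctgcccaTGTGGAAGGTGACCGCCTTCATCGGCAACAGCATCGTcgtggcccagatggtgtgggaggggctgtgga
Of these 100 bases 86 are identical. No 150-base window of any of the 8 genes' annotated transcripts, the length of a read here, occurred exactly in a transcript of another gene (0 of 1294 windows for Cldn9, 0 of 1605 for Cldn6), and no exon of the 8 genes overlapped an exon of another gene in the annotation.

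Receptors of the family targeted in this design bind the element TCAAGGTCA (reverse complement TGACCTTGA), so the promoters of the 8 genes were searched for these letters. RefSeq (GRCm38.p6) gave promoter sequence for 7 of the 8 genes at 11 starts, and Cldn9 had no entry. In the 250 bases before each start, neither the full element nor its shorter form AAGGTCA was found on either strand; over all 27025 genes in that table, 0.422% had the full element and 4.70% the shorter form, which the full element contains. The half-site AGGTCA (reverse complement TGACCT), which both longer forms contain, was found in 2 of the 7 genes, Cldn14 and Ocln, against 15.8% of all genes. Cldn14 had it at each of its starts and Ocln at its upstream start only. A gene with more starts has more chances of a match, and 14% of all 32851 windows had the half-site. The promoters of 3 genes are shown, the first with no match and the others with the half-site in capitals: that of Cldn11 (chr3:31149670-31149919, plus strand), the most abundant of the genes, and the upstream starts of Ocln (chr13:100552719-100552968, minus strand) and Cldn14 (chr16:94008838-94009087, minus strand).
Cldn11: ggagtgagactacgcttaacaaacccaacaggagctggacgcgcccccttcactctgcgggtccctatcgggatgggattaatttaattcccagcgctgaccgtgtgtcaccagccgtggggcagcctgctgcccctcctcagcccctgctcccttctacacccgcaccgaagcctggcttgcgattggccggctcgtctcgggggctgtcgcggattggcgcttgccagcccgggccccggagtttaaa
Ocln: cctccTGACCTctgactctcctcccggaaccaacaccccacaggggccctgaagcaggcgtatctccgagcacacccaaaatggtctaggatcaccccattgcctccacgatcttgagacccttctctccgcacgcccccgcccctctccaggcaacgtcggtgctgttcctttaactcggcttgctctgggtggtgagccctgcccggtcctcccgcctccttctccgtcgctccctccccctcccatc
Cldn14: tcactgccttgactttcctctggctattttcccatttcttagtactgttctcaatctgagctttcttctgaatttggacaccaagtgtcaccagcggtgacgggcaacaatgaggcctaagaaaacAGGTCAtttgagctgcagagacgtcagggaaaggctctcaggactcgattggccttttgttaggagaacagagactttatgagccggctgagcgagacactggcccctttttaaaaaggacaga
A match gives the letters of a window and is no evidence of binding, and a window without a match says nothing of the receptor elsewhere at the gene.

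Levels of different genes were compared only per length, as FPKM (fragments per kilobase of exon, scaled to 1000000 counts), over all 10 libraries. Cldn11 was far above the others, at 204 ± 22.3 FPKM (SD, n = 10), a level above that of 99.1% of tested genes. Tjp1 followed at 44.9 ± 9.32 and Cldn9 at 44.6 ± 6.05 FPKM, and Cldn6 had 28.3 ± 4.99 FPKM. Ocln had 8.40 ± 0.845, Ildr1 4.65 ± 0.523 and Marveld2 4.58 ± 0.487 FPKM, and Cldn14 was lowest at 1.95 ± 0.371 FPKM, a level above that of 34.0% of tested genes.

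The order of these FPKM levels was separated without overlap of the 10 libraries at 4 of its 7 steps: Cldn11 over Tjp1, Cldn6 over Ocln, Ocln over Ildr1, and Marveld2 over Cldn14. Tjp1 and Cldn9 did not differ beyond their spread (23.5 to 59.2 and 35.4 to 57.1 FPKM), although Tjp1 was the higher in 8 of 10 libraries. The exceptions were control 1 (45.7 against 47.9 FPKM) and control 2 (23.5 against 57.1 FPKM), and control 2 brings the means together. There was also no difference beyond the spread between Ildr1 and Marveld2 (3.67 to 5.31 and 3.83 to 5.16 FPKM). Cldn9 and Cldn6 overlapped in range, yet Cldn9 was the higher in 10 of 10 libraries, by a factor of 1.33 to 1.91 in FPKM. The partners at the tricellular corner, Marveld2 and Ildr1, had an FPKM ratio between 0.829 and 1.37, while occludin exceeded its relative tricellulin by a factor of 1.68 to 2.11. Transcript levels of the sealing proteins covered a wide range, and of the claudins placed at hair cells Cldn9 was the third and Cldn14 the last of the 8.

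**Figure D1:**
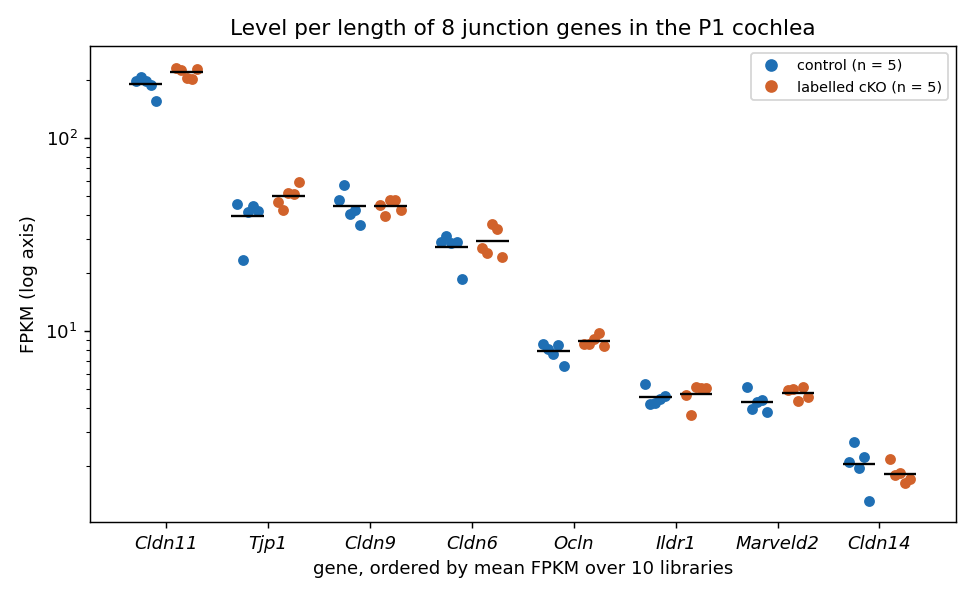
FPKM on a log axis for the 8 genes, ordered by their mean over 10 libraries. Each point is a library, blue for control and orange for labelled cKO (n = 5 each), and each bar is a group mean; Cldn11 lies between 156 and 232 FPKM and Cldn14 between 1.33 and 2.67 FPKM in all libraries.

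The main comparison asked whether these genes differed between the genotypes. None of the 8 was called at an adjusted p under 0.05 by edgeR (nor by DESeq2 or limma-voom), where 0.619% of all 17937 tested genes were called (0.0725% higher and 0.546% lower in the cKO-labelled libraries), and their adjusted p lay between 0.487 and 0.985. With no adjustment, 2 of the 8 had a p under 0.05, Cldn11 and Tjp1, both higher in the cKO-labelled libraries, and over all tested genes 9.65% had such a p (4.13% on the higher side). In CPM (counts scaled to a library total of 1000000), 0 of the 8 had genotypes that did not overlap, against 2.84% of all tested genes. The median log2 fold change of the 8 genes was 0.13, with 6 higher and 2 lower on average in the cKO-labelled libraries; over all tested genes the median was -0.0072, and 48.3% were higher.

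Cldn11 (ENSMUSG00000037625; chromosome 3, 31149920 to 31164324, 3 exons), the claudin of strial basal cells and also of myelin in the brain, had 371, 397, 369, 354 and 295 CPM in controls 1 to 5. The cKO-labelled libraries held 435, 423, 384, 380 and 435 CPM in the same order. Of the controls, only control 2 reached into the range of the other group, and control 5 was lowest. The means were 357 ± 37.8 and 411 ± 27.2 CPM (SD, n = 5 each). On the log2 scale this difference was 0.20 (SE 0.0887, 95% interval 0.013 to 0.39, edgeR adjusted p = 0.489). Without control 2 it was 0.23 (edgeR adjusted p = 0.220), and without control 5 it was 0.14 (edgeR adjusted p = 0.587). These 2 values were the highest and the lowest of the fits without 1 library.

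Markers of other cells were read beside Cldn11. The 3 strial basal cell markers other than Cldn11 (Tbx18, Nr2f2 and Sox8) had a summed level of 514 to 562 CPM in controls and 532 to 631 CPM in the cKO-labelled libraries, with 0 of 3 called. Tbx18 made up most of this sum, at 403 ± 22.9 CPM in controls and 451 ± 46.9 CPM in the cKO-labelled libraries (SD, n = 5 each). Tbx18 and Nr2f2 were higher on average in the cKO-labelled libraries, and Sox8 was lower (log2 fold change -0.057). Oligodendrocytes, the myelin-forming cells of the brain, also use Cldn11, and their 8 markers summed to 23.2 to 29.8 CPM in controls and 16.0 to 22.3 CPM in the cKO-labelled libraries, the opposite direction to Cldn11. Of these 8 markers 4 were tested, and 3 were called lower (Olig1, Olig2 and Gpr17). The fourth tested marker, Myrf, had 13.3 ± 2.35 CPM in controls and 14.8 ± 1.55 CPM in the cKO-labelled libraries (SD, n = 5 each), a large share of the summed level, and was not called (log2 fold change 0.15). The myelin genes on the list were near 0, with 5 to 19 counts per library for Mog, 0 to 26 for Mobp and 2 to 14 for Opalin. The 7 melanocyte and intermediate cell markers summed to 256 to 340 and 299 to 341 CPM, with 0 of 7 called.

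**Figure D2:**
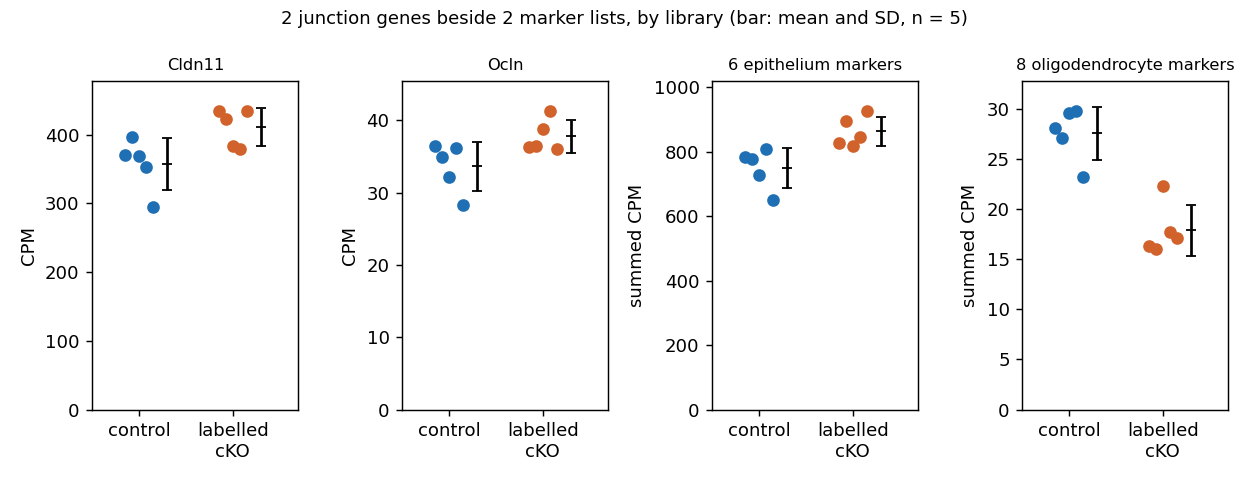
CPM of Cldn11 and Ocln, and summed CPM of 6 epithelium and 8 oligodendrocyte markers, each point a library (blue control, orange labelled cKO) and each bar the mean and SD of 5. The genotypes overlap for both junction genes, whereas the epithelium sums (652 to 809 against 820 to 927 CPM) and the oligodendrocyte sums do not overlap and lie in opposite directions. The sums of all other marker lists overlap between the genotypes, and none of the 6 epithelium markers is without overlap on its own.

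Cldn9 (ENSMUSG00000066720, 1 exon), needed in mice for hair cell survival and normal hearing, showed the smallest difference of the 8 genes with all libraries included. Control libraries 1 to 5 held 69.3, 84.1, 58.6, 61.2 and 51.7 CPM, and the cKO-labelled libraries held 65.3, 57.0, 69.4, 69.4 and 61.9 CPM. The control group contained both the highest and the lowest of the 10 values. Its log2 fold change was -0.0091 (SE 0.116, 95% interval -0.26 to 0.24; edgeR adjusted p = 0.985), and it was 0.0905 without control 2, where Ildr1 had the smallest difference, and -0.081 without control 5, where Cldn6 had it.

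Cldn6 (ENSMUSG00000023906, 3 exons), a claudin known from embryonic epithelia, had 50.1, 54.5, 49.4, 50.1 and 32.3 CPM in controls 1 to 5 and 46.4, 43.7, 62.3, 58.7 and 42.2 CPM in the cKO-labelled libraries. Control 5 lay below every other library, and 2 of the cKO-labelled libraries lay above every control. On the log2 scale the difference was 0.10 (SE 0.145, 95% interval -0.21 to 0.41; edgeR adjusted p = 0.841), and without control 5 it was -0.0096. The ratio of Cldn9 to Cldn6, in FPKM, was 1.65 ± 0.222 in controls and 1.54 ± 0.176 in the cKO-labelled libraries (SD, n = 5 each), ranges that overlap.

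Cldn14 (ENSMUSG00000047109; chromosome 16, 93919031 to 94008837, minus strand), the claudin whose loss causes recessive deafness and hair cell death, was the gene with the fewest counts, 112 to 206 per library. It had 4.48, 5.79, 4.20, 4.79 and 2.86 CPM in controls and 4.65, 3.83, 3.95, 3.50 and 3.72 CPM in the cKO-labelled libraries. The control range enclosed the whole range of the other group. The log2 fold change of -0.17 (SE 0.174, 95% interval -0.54 to 0.20; edgeR adjusted p = 0.769) was not called, and it was -0.068 without control 2 and -0.29 without control 5. The 8 hair cell markers, among them Myo7a and Pou4f3, summed to 267 to 340 CPM in controls and 263 to 345 CPM in the cKO-labelled libraries, with 0 of 8 called.

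Ocln (ENSMUSG00000021638; chromosome 13, 100496507 to 100552718, minus strand) is the founding MARVEL-domain protein of the tight junction. Its levels were 36.5, 34.9, 32.2, 36.1 and 28.3 CPM in controls and 36.3, 36.4, 38.8, 41.3 and 36.0 CPM in the cKO-labelled libraries. The groups met at about the same level, where controls 1 and 4 lay at the level of the 3 lowest libraries of the other group. The groups differed by 0.17 on the log2 scale (SE 0.0880, 95% interval -0.020 to 0.36; edgeR adjusted p = 0.576).

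Marveld2 (ENSMUSG00000021636; chromosome 13, 100595957 to 100616971, minus strand), which encodes tricellulin, is the neighbour of Ocln at a distance of 43.2 kb. It had 17.4, 13.7, 14.6, 15.0 and 13.1 CPM in controls and 16.9, 17.1, 14.7, 17.5 and 15.7 CPM in the cKO-labelled libraries. Control 1 was as high as the highest libraries of the other group. Controls 2, 3 and 5 lay below every library of that group, and control 4 lay above only its lowest. On average the difference was 0.15 on the log2 scale (SE 0.101, 95% interval -0.066 to 0.37; edgeR adjusted p = 0.649). The ratio of Ocln to Marveld2 in FPKM was 1.83 ± 0.155 in controls and 1.85 ± 0.163 in the cKO-labelled libraries (SD, n = 5 each).

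Ildr1 (ENSMUSG00000022900; chromosome 16, 36693978 to 36726804, plus strand), the angulin that brings tricellulin to the corner between cells, had 22.9, 18.4, 18.3, 19.2 and 20.1 CPM in controls. The cKO-labelled libraries held 20.3, 15.8, 22.3, 21.9 and 22.2 CPM. The highest value was a control and the lowest was labelled cKO. On the log2 scale the means differed by 0.053 (SE 0.110, 95% interval -0.18 to 0.29; edgeR adjusted p = 0.897). Single libraries moved this small value, to 0.018 without control 2 and to 0.13 without labelled cKO 2.

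Tjp1 (ENSMUSG00000030516; chromosome 7, 65296165 to 65527781, minus strand), the ZO-1 scaffold, had the largest difference of the 8 genes with all libraries included, and this value rested in part on control 2. Controls 1 to 5 held 358, 187, 324, 349 and 333 CPM, and the cKO-labelled libraries held 368, 333, 406, 401 and 470 CPM. Without control 2, the controls spanned 324 to 358 CPM, and labelled cKO 2 was still within that span. With all libraries, the log2 fold change was 0.35 (SE 0.153, 95% interval 0.024 to 0.68; edgeR adjusted p = 0.487). Without control 2 it was 0.20 (SE 0.0819; edgeR adjusted p = 0.376), below the 0.23 of Cldn11 in the same fit. Tjp1 has the longest merged exons of the 8 genes, 7811 bp, and control 2 is the library whose deviations had the most negative correlation with exon length. The part of that trend in the result was not tested.

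**Figure D3:**
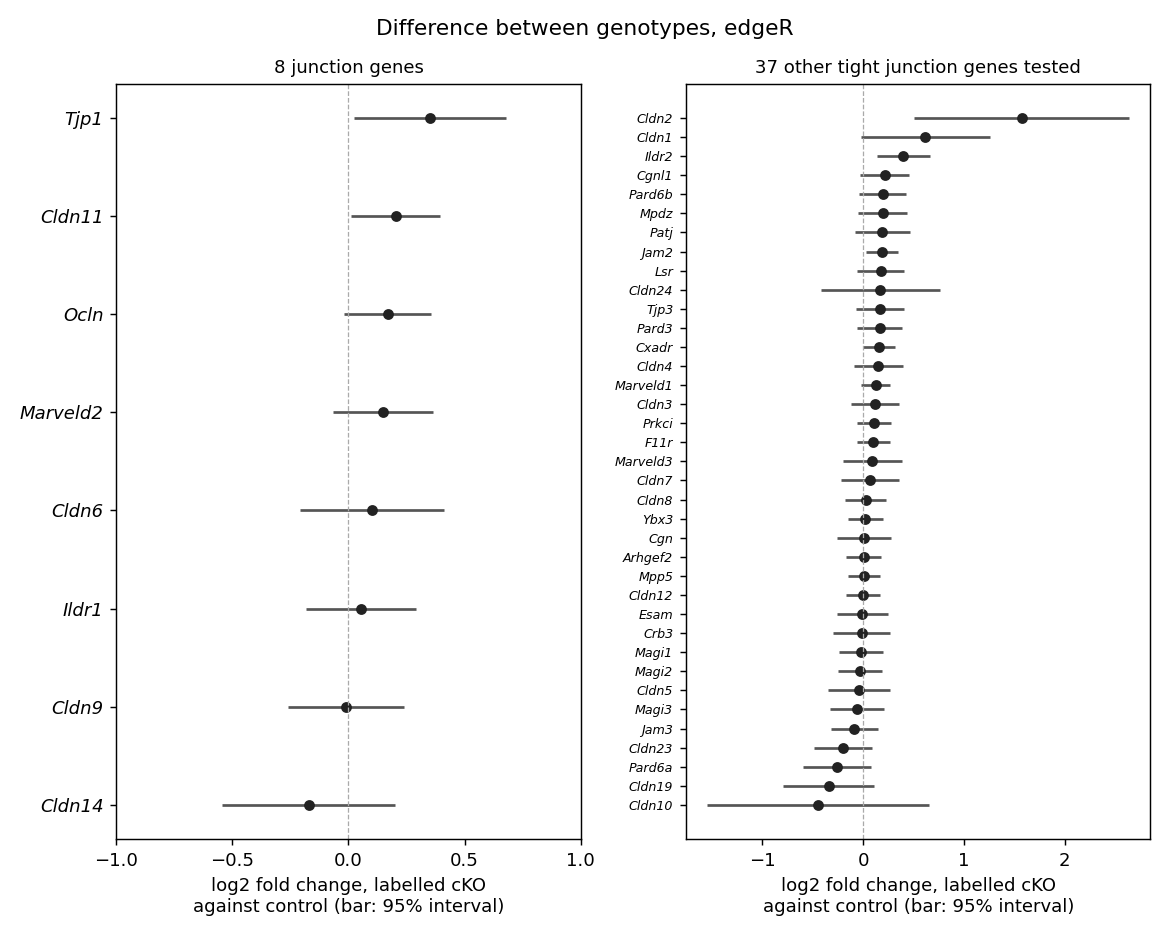
Log2 fold changes of the cKO-labelled libraries against controls (n = 5 each) with 95% intervals from the edgeR fit, for the 8 genes and for 37 other tight junction genes, on separate axes. Among the 8 genes the intervals of Tjp1 and Cldn11 alone lie above 0 before adjustment, and no gene in either panel had an adjusted p under 0.05.

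The intervals bound the differences that these 10 libraries leave possible, gene by gene and before adjustment. As folds, they ran from 0.836 to 1.18 for Cldn9, from 0.955 to 1.29 for Marveld2, from 0.880 to 1.22 for Ildr1 and from 0.986 to 1.28 for Ocln. On the log2 scale they were widest for Cldn14, at 0.685 to 1.15 as a fold, and for Tjp1, at 1.02 to 1.60. The Tjp1 interval includes control 2, and without that library its log2 fold change was 0.20 (SE 0.0819). A doubling or a halving lay outside the interval of every one of the 8 genes, and smaller differences cannot be told from none where the interval includes 1.

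Markers of epithelium had mean differences of the same sign as most of these genes. The 6 epithelium markers (Epcam, Cdh1, Krt8, Krt18, Esrp1 and Grhl2) were all higher on average in the cKO-labelled libraries (median 0.16 on the log2 scale), with 0 of 6 called. Their sum was 652 to 809 CPM in controls and 820 to 927 CPM in the cKO-labelled libraries. Cdh1 alone had 370 ± 40.8 and 451 ± 33.7 CPM (SD, n = 5 each). None of the 6 was without overlap on its own, against 2.84% of all tested genes without overlap. The 6 strial marginal cell markers, all higher on average with 0 called, summed to 825 to 1081 and 1046 to 1112 CPM. The 6 endothelium markers summed to 421 to 526 and 475 to 525 CPM, and the 8 supporting cell markers to 1699 to 2546 and 2116 to 2366 CPM, with 0 called in either list. Markers of 2 further cell types had the opposite sign. The 6 erythroid markers were all lower on average in the cKO-labelled libraries (median -0.80 on the log2 scale, 0 called) and summed to 714 to 2967 CPM in controls, highest in control 2, and to 444 to 1295 CPM in the other group. Of the 6 Schwann cell markers 5 were lower (median -0.42, 0 called), with sums of 745 to 839 and 525 to 832 CPM. The part of any of these markers in the junction gene values was not tested.

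The spread within a genotype had a pattern of its own. Control 5 was the lowest control for 6 of the 8 genes, all but Ildr1 and Tjp1, and also had the lowest epithelium sum of all libraries, 652 CPM. Control 2 was the highest control for Cldn9, Cldn11, Cldn14 and Cldn6, the 4 genes with the shortest merged exons (1443 to 2129 bp), and the lowest for Tjp1. The coefficient of variation of CPM among controls was 9.53% for Ildr1, 10.2% for Ocln, 10.6% for Cldn11 and 11.3% for Marveld2, and it was 18.2% to 23.9% for Cldn6, Cldn9, Tjp1 and Cldn14. The values of Tjp1 and Cldn6 rest largely on a single library each. Tjp1 had 187 CPM in control 2 and 324 to 358 CPM in the other controls. Cldn6 had 32.3 CPM in control 5 and 49.4 to 54.5 CPM in the other controls. In the cKO-labelled libraries it lay between 6.00% for Ocln and 18.1% for Cldn6.

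**Figure D4:**
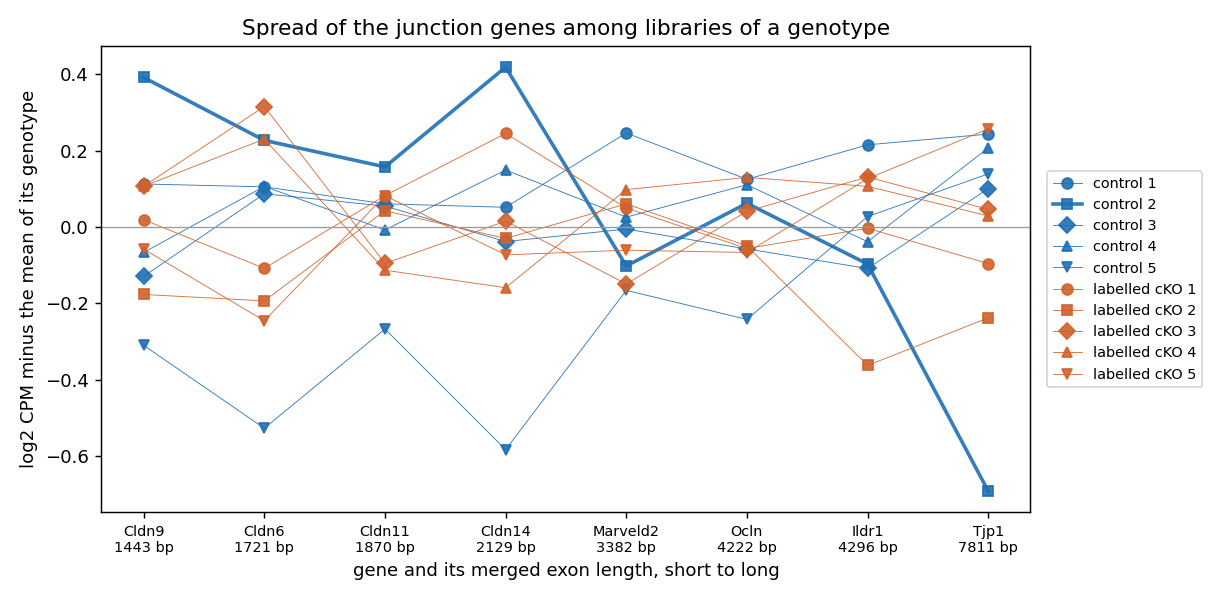
Log2 CPM of each library minus the mean of its genotype, for the 8 genes ordered by merged exon length, with blue for control and orange for labelled cKO and 1 marker shape per replicate number. The thick line is control 2, high for the 4 short genes and lowest for Tjp1, and control 5 is the lowest control for 6 genes.

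Patterns were also compared among genes as deviations from the genotype mean over the 10 libraries, with no test, since the libraries share their depth and the trend of control 2. Among the 28 pairs of the 8 genes, Pearson's r lay between -0.556 (Cldn9 and Tjp1) and 0.859 (Cldn6 and Ocln), with a median of 0.262. Cldn6 and Cldn9 had an r of 0.761 and Cldn11 and Cldn14 one of 0.843, and these were 0.811 and 0.800 without control 2, whereas that of Cldn9 and Tjp1 was 0.11. Ocln and its neighbour Marveld2 had 0.553, and Marveld2 and Ildr1, which meet at the same corner, had 0.102.

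Among the other 15265 tested genes with at least 1 CPM, the most similar pattern to Cldn9 was that of Smpx (r = 0.981) and then Kcna10 (0.975). For Ildr1 these were Usp19 (0.973) and Atoh1 (0.967), the latter the transcription factor that specifies hair cells, and for Tjp1 they were Trpm3 (0.994) and Cpne3 (0.991). Cldn11 was closest to Las1l (0.959), Cldn14 to Htra2 (0.976), Cldn6 to Chtf8 (0.950), Ocln to Tspan14 (0.952) and Marveld2 to Dhx32 (0.962). With 10 libraries and this many genes, high values can arise for any gene, so they describe only these libraries.

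Other genes of the tight junction were read from the same fit. Of 45 listed, 37 were tested and 0 were called by edgeR, by DESeq2 or by limma-voom; 25 were higher and 12 lower on average in the cKO-labelled libraries, with a median log2 fold change of 0.090. Without adjustment 3 had a p under 0.05, Ildr2, Cldn2 and Jam2, all higher in the cKO-labelled libraries. Cldn16, Cldn18 and Cldn22 had 0 counts in all libraries. For Cldn16 and Cldn18 this allows up to 0.070 to 0.0899 CPM (3 counts per library, counting error only). Cldn22 shares exon sequence with Wwc2 on the opposite strand, so its 0 sets no such limit without a stated use of strand.

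By their role, 12 other claudins were tested, with 7 higher and 5 lower. Cldn3, an epithelial claudin, had 41.6 ± 5.47 FPKM, and Cldn5, the claudin of blood vessel endothelium, 39.7 ± 7.41 FPKM (SD, n = 10), so that these sat near Cldn9 in level; their log2 fold changes were 0.12 (SE 0.112) and -0.045 (SE 0.144). Cldn1 had 14.4 ± 2.73 CPM in controls and 22.1 ± 12.1 CPM in the cKO-labelled libraries (SD, n = 5 each), with an edgeR adjusted p of 0.536, and Cldn10 had a log2 fold change of -0.45 (SE 0.513). Cldn2, named after its values were seen, had only 10 to 93 counts per library and a log2 fold change of 1.57 (SE 0.498; edgeR adjusted p = 0.283). Cldn3 shares exon sequence with Wbscr25, which lies on the opposite strand.

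The nearest relatives of tricellulin and ILDR1 were tested in the same fit. Log2 fold changes were 0.12 for Marveld1 (SE 0.0685; edgeR adjusted p = 0.601) and 0.090 for Marveld3 (SE 0.136; edgeR adjusted p = 0.850). The angulin Ildr2 had 92.9 ± 16.8 CPM in controls and 122 ± 12.9 CPM in the cKO-labelled libraries (SD, n = 5 each) with no overlap between the genotypes, a log2 fold change of 0.40 (SE 0.121) and an edgeR adjusted p of 0.257. It was the sole gene of the 37 without overlap, where 2.84% of all tested genes had none, and it shares exon sequence with 5330438I03Rik on the opposite strand. The angulin Lsr had a log2 fold change of 0.17 (SE 0.108; edgeR adjusted p = 0.630).

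Scaffolds and adhesion molecules completed the list. Of 16 scaffold and polarity genes, 11 were higher and 5 lower on average, with log2 fold changes from -0.26 to 0.22. Ybx3, a factor bound by ZO-1, had 47.9 ± 3.78 FPKM (SD, n = 10) and a log2 fold change of 0.023 (SE 0.0819). Of 5 junctional adhesion molecules tested, 3 were higher and 2 lower. Jam3, F11r and Cxadr were the most abundant of them, at 26.8 ± 3.63, 22.6 ± 1.61 and 22.4 ± 1.98 FPKM, with log2 fold changes of -0.087, 0.10 and 0.16. Jam2, named after its values were seen, had a log2 fold change of 0.19 (SE 0.0729; edgeR adjusted p = 0.418). Jam3, Cxadr and Lsr also share exon sequence with other genes, and reads of such pairs cannot be told apart without a stated use of strand.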

How the data were processed

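Per the submitters' processing notes, STAR 2.5, HTSeq 0.61 and DESeq2 were used with the build mm10; parameters, annotation and use of strand are not given in the sources used here. The authors deposited whole-number counts per Ensembl gene and FPKM values; both tables were matched to libraries through the library names in the labels. Per the labels' protocols, RNA was enriched for poly(A) and read as paired 150 bp reads. The lengths implied by the deposited FPKM were within 0.1% of merged exon lengths in GENCODE M21 (GRCm38) for 95.3% of 13923 genes with at least 50 counts per library, and for all 8 genes described; names and positions come from that annotation, which held 54495 of 54532 gene IDs.

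Counts were tested with edgeR 4.0.16 in R 4.3.3 (filterByExpr with a minimum of 10 counts, TMM, robust quasi-likelihood F-test, genotype only, 5 against 5 libraries), with Benjamini-Hochberg adjustment over 17937 genes and a call at an adjusted p under 0.05. SEs come from the F statistic and 95% intervals from the total degrees of freedom. The fit was checked on simulated data. In counts simulated from the means and library sizes of these data, 22 of 50 genes changed by 0.5 (log2 scale) were called. At a change of 1 it was 38 of 50, and 9 unchanged genes were called. A small difference can thus go without a call. Pearson's r used log2 CPM (prior count 2).

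The 8 genes and all lists were chosen with earlier results of these data known. Named genes were the 8; in the list of other junction genes any called, the 6 highest in FPKM and 7 relatives; and the genes closest in pattern, 2 per gene, of which some are printed; 1 further relative is not reported here. Alternatives were DESeq2 1.42.0 as a test or as size factors, upper-quartile factors, other filters, limma 3.58.1 with voom quality weights or on log2(FPKM + 1) and log2(FPKM + 0.1), the replicate number as a block, an adjusted p threshold of 0.1, and leaving out each library. Depth was 33.5 to 41.8 M counts per library; intervals on fold changes cover the spread between animals.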

Additional observations from a re-analysis of the deposited data

Results flagged for a closer look

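In each genotype, the CPM of the 8 genes and the summed CPM of 12 marker lists were searched for single libraries far from the rest (Dixon's test, critical value 0.71). Chance alone marks about 5% of such sets of 5 libraries, which is 2 of the 40 examined, and 3 were found. Tjp1 had 187 CPM in control 2, with the other controls at 324 to 358. Cldn6 had 32.3 CPM in control 5, with the other controls at 49.4 to 54.5. The oligodendrocyte markers summed to 22.3 CPM in labelled cKO 3, with the other cKO-labelled libraries at 16.0 to 17.7.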

How the results depend on the processing

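None of the 8 genes and none of the other junction genes was called in any of 18 alternatives that gave counts of calls, which included the adjusted p threshold of 0.1 and the fits without 1 library. Over 19 alternatives for each of the 8 genes, 143 of 152 log2 fold changes kept their direction. The exceptions were Cldn9, with 0.13 by limma-voom, 0.0078 with the replicate block, 0.010 and 0.011 by limma on log2(FPKM + 1) and log2(FPKM + 0.1), and -0.081 to 0.0905 without 1 library, and Cldn6, with -0.0096 to 0.16 without 1 library; the cause was not tested. The lowest adjusted p of any of the 8 genes was 0.135, for Tjp1 by limma-voom, where its log2 fold change was 0.25. The count of calls over all genes was 111, against 307 with DESeq2, 424 with limma-voom and 52 to 197 without 1 library; the cause was not tested. The replicate block, under which 101 genes were called, changed no call for the 8 genes. With it, Tjp1 had a log2 fold change of 0.38 (SE 0.105, edgeR adjusted p = 0.175), against 0.35 (SE 0.153) in the main fit. Same-numbered libraries had correlations of deviations between -0.0064 and 0.262, and 5 of 10 libraries correlated best with their own number. Whether the numbers mark pairs was not tested, and the main fit did not use them as pairs. Counts limit Cldn14 most, with 112 to 206 per library.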
